A study of Mus musculus with 6 samples.

Results

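The dystrophin-glycoprotein complex was followed here through the transcripts of 8 of its genes: Dmd, Utrn, Dag1, Sgca, Sgcb, Sgcd, Sntb1 and Dtna. Every probe set that the platform annotation assigned to exactly 1 gene symbol, that symbol being one of these 8, was taken. This gave 29 probe sets out of 45101, and 8 genes out of the 18194 with such a probe set. Transcripts were measured on 6 arrays, with 3 arrays per group. All mice were female C57BL/6 and were ovariectomized at 4 months, so both groups lacked ovaries and no ovary-intact group was measured. The OVX group carried a placebo pellet and the OVX + E2 group carried a pellet releasing 0.18 mg of 17β-estradiol (E2) over 60 days. The labels do not say whether the arrays of a group came from separate mice, so the p-values measure only the spread between these samples. The study gives the tissue as soleus, a postural hindlimb muscle, whereas the sample labels name the left ventricle.

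The dystrophin-glycoprotein complex joins the actin cytoskeleton of a muscle fibre to laminin in the basal lamina around it. Dystrophin, or utrophin in its place, binds actin inside the fibre and β-dystroglycan at the membrane, sarcoglycans steady the membrane part, and syntrophins and dystrobrevins attach signalling proteins on the inner face. The complex is known for protecting the sarcolemma during contraction, and loss of dystrophin or of a sarcoglycan causes muscular dystrophy.

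The RNA had the profile of skeletal muscle. Of 14 genes restricted to skeletal muscle 12 lay in the brightest 5% of probe sets on these arrays, with list means of 11.7 to 12.7 per array, and of 13 genes restricted to heart 0 did, with list means of 6.98 to 7.13. All values are log2 expression values in arbitrary units, normalized by the authors, and a difference is OVX + E2 minus OVX. The 6 arrays had medians of 6.90 to 6.93 and maxima of 14.04 to 14.19. These are whole-muscle RNA samples, in which fewer cells of a type and less RNA per cell cannot be told apart. The mean deviation of 12 fast-fibre genes was 0.13, 0.25 and 0.81 across the OVX arrays in replicate order, and 0.29, -0.19 and -1.28 across the OVX + E2 arrays. The arrays numbered 3 therefore stood at opposite ends of the fast-fibre score, and values without them are given where they matter. Array means of markers of other cells were 9.18 to 9.78 for 6 fibroblast markers, 7.99 to 8.59 for 7 endothelial markers, 8.71 to 9.14 for 7 smooth muscle and pericyte markers, 7.45 to 7.69 for 5 macrophage markers and 6.94 to 7.03 for 5 satellite cell markers. The same means were 13.1 to 13.6 for 10 slow-fibre genes and 7.88 to 8.001 for 10 neuromuscular junction genes. They were 8.02 to 9.01 for 4 fat cell markers and 8.43 to 9.11 for 4 Schwann cell markers.

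The sequence directly before the annotated start of 4 members is shown because the treatment is a steroid hormone whose receptor binds DNA, and because the printed genes range from the lowest p to a difference near 0. Each line holds the 250 bases upstream of the start, 5′ to 3′ on the strand of the gene, from RefSeq for GRCm38.p6. Capitals mark the estrogen response element half-site (GGTCA, or TGACC on the other strand), the GC box (GGGCGG, or CCGCCC) and the CArG box of muscle promoters.
Dmd, chrX:82948620-82948869, plus strand: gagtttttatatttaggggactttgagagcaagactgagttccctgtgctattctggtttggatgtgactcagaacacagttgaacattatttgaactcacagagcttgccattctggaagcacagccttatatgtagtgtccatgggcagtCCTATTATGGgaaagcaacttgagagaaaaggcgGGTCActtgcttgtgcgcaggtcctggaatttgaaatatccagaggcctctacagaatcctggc
Dag1, chr9:108263959-108264208, minus strand: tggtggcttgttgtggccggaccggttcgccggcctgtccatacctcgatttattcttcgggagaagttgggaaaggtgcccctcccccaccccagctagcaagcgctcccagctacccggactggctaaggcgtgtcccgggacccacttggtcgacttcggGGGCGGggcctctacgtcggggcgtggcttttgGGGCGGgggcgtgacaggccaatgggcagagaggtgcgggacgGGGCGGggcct
Sgca, chr11:94976328-94976577, minus strand: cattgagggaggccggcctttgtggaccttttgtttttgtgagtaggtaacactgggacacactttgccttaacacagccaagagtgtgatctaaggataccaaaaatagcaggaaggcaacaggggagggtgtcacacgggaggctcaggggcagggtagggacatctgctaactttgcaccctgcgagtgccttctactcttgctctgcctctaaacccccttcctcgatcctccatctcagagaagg
Utrn, chr10:12861736-12861985, minus strand: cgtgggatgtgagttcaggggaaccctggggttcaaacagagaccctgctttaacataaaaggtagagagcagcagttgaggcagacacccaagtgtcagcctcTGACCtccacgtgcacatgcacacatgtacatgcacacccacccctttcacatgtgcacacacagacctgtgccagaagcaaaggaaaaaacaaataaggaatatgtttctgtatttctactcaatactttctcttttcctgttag

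Of 8 starts searched in 6 members, 2 had a half-site in these windows, namely the Dmd and Utrn starts printed above. The printed Utrn window lies inside the Utrn gene. A half-site was present in 35.2% of 32851 promoters of the same length. The printed Dmd window, which lies inside the Dmd gene, also held the single CArG box among the members, a motif present in 1.47% of all promoters. A GC box was found at 5 starts and in 32.7% of all promoters, and the printed Dag1 window held 3 boxes, which it shares with the overlapping window of the other Dag1 start. The E-box (CANNTG) was found at 6 starts and in 66.2% of all promoters. The full estrogen response element was found at 0 starts, and in 0.0639% of all promoters. These matches are descriptions of letters, and binding was not measured.

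Across the complex the measured values leaned lower with E2, but no member passed the study's threshold. The difference was below 0 in 25 of the 29 probe sets, where 52.3% of all probe sets were, with a median of -0.10 against -0.0049 over all probe sets. Among probe sets with a mean of 8 or more it was below 0 in 13 of 14 members, or 92.9%, and in 90.4% of all, so the bright members were close to the background. Some other marker lists were lower too. The mean difference was -0.79 for the fast-fibre genes (12 of 12 below 0) and -0.45 for the skeletal-muscle-restricted genes (13 of 14). These lists share genes, such as Myh4 and Actn3, and the skeletal-muscle-restricted genes deviated by -0.72 on OVX + E2 replicate 3. Also lower were the fibroblast markers at -0.29 (6 of 6) and the smooth muscle and pericyte markers at -0.15 (7 of 7). Above 0 were the slow-fibre genes at 0.015 (5 of 10 below 0), the fat cell markers at 0.091 (1 of 4) and the heart-restricted genes at 0.069 (1 of 13). The part of these lists in the members' values was not tested. By limma, 0 of 29 reached an unadjusted p of 0.001 or less, a rule that called 0.213% of all probe sets. At an unadjusted p under 0.05, 7 member probe sets were lower and 0 were higher, where 9.43% of all probe sets were lower and 4.35% higher. The OVX and OVX + E2 arrays did not overlap, with E2 lower, in 6 member probe sets (11.4% of all probe sets), and with E2 higher in 0 (9.76% of all). The smallest unadjusted p among the members was 0.0045, and the smallest p adjusted by Benjamini-Hochberg over all probe sets was 0.308. Because this was also the smallest adjusted p on the whole array, no gene passed correction.

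**Figure D1:**
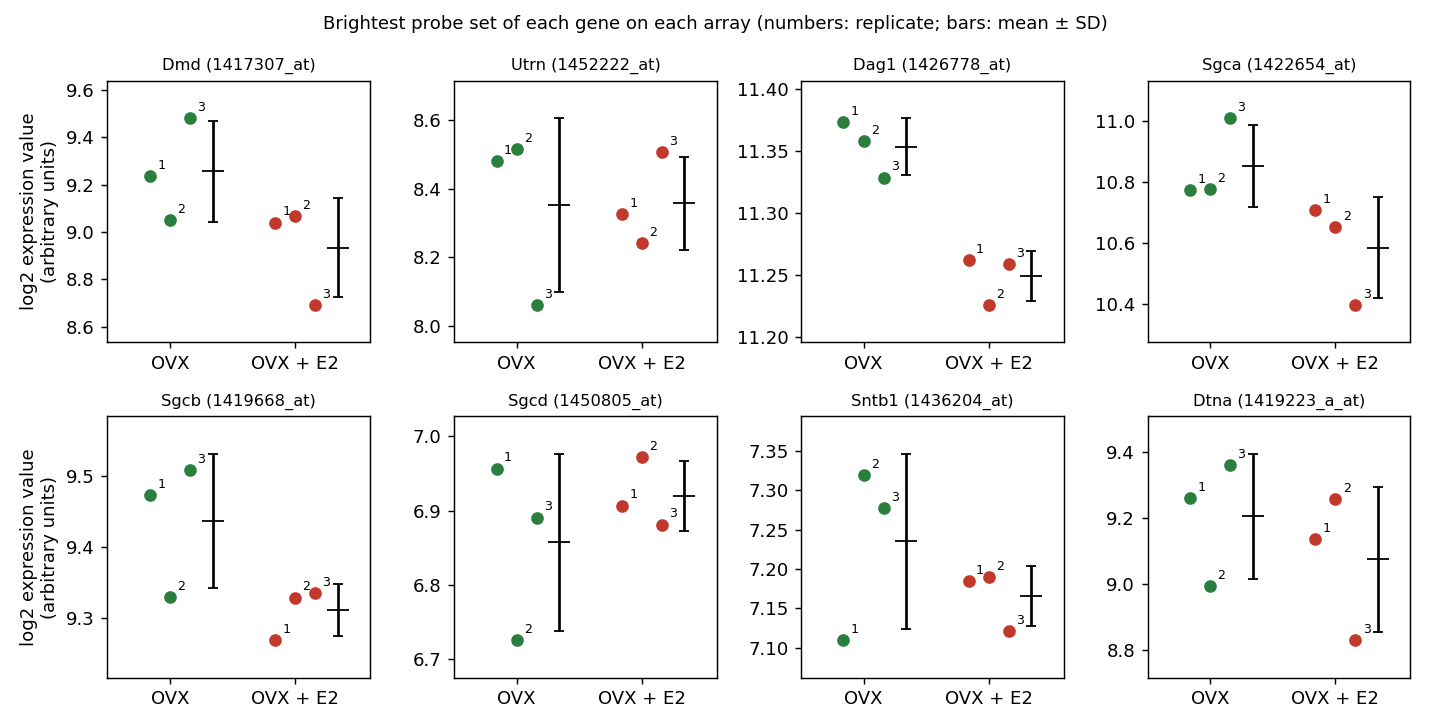
The brightest probe set of each of the 8 genes is plotted on each of the 6 arrays, as log2 expression value in arbitrary units, with OVX in green, OVX + E2 in red, the replicate number beside each point and the mean ± SD of 3 arrays as a bar. The groups do not overlap for Dag1 and Sgca, and for Dmd the arrays numbered 3 are the highest and the lowest.

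Dystrophin itself was measured by 4 probe sets, and all 4 were below 0. Dmd encodes the long rod-shaped protein that ties actin to the membrane complex, and spans chrX:82814664-85205050 in GRCm38.p6. The tightest of its probe sets, 1448665_at, read 9.08, 9.07 and 9.16 with placebo and 8.97, 8.91 and 8.87 with E2, each in replicate order as below. Every OVX array was above every OVX + E2 array. The difference was -0.18 ± 0.045 (SE), a fold of 0.880, with an unadjusted p of 0.0045 by limma, the smallest of all members.

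The brightest Dmd probe set, 1417307_at, read 9.24, 9.05 and 9.48 with placebo and 9.04, 9.07 and 8.69 with E2. Here the groups overlapped, since OVX replicate 2 lay between the OVX + E2 arrays, and the extremes were the arrays numbered 3. Its difference of -0.32 ± 0.13 (SE) had an unadjusted p of 0.046 by limma, and was -0.090 without both arrays numbered 3. For 1443315_at the 3 OVX values were 7.74, 8.11 and 8.14 and the 3 OVX + E2 values were 7.75, 7.82 and 7.60. OVX replicate 1 lay among the OVX + E2 arrays, and the difference was -0.27 ± 0.11 (SE), with an unadjusted p of 0.047 by limma, and -0.14 (unadjusted p of 0.285) without both arrays numbered 3. The dim probe set 1430320_at, at 6.08 to 6.32, had a difference of -0.074. Under quantile normalization, cyclic loess and median centring all 4 Dmd probe sets stayed below 0, with 1448665_at between -0.028 and -0.20 and 1417307_at between -0.17 and -0.34. The unadjusted p-values by limma for 1448665_at were 0.509 under quantile normalization and 0.227 under cyclic loess. For 1417307_at they were 0.155 and 0.144. The median Pearson r between pairs of Dmd probe sets was 0.64 over the 6 arrays, as a description of how alike they ran.

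Utrophin, the paralog that replaces dystrophin at the neuromuscular junction and in fetal muscle, gave differences near 0. Utrn lies at chr10:12382187-12869888 in GRCm38.p6 and was measured by 3 probe sets. The brightest, 1452222_at, read 8.48, 8.51 and 8.06 on the OVX arrays and 8.33, 8.24 and 8.51 on the OVX + E2 arrays. The lowest value was OVX replicate 3 and OVX + E2 replicate 3 was next to the highest, the opposite of Dmd. Its difference was 0.0054 ± 0.13 (SE) with an unadjusted p of 0.967 by limma, and turned to -0.011 after median centring. Without both arrays numbered 3 it was -0.21, with an unadjusted p of 0.0071 by limma, and the remaining arrays did not overlap. The other probe sets, 1427569_a_at and 1426892_at, differed by 0.031 and -0.016, within their spread.

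The treatment difference of Utrn was set against that of Dmd within each array, using the brightest probe set of each. Utrn minus Dmd was -0.75, -0.54 and -1.42 with placebo and -0.71, -0.83 and -0.19 with E2. The 2 genes parted most on the arrays numbered 3, in opposite directions, and the other 4 arrays overlapped. The difference of differences was 0.33, with p = 0.5 in a two-sided exact permutation test over 20 labelings, whose smallest possible p is 0.1. Averaging all probe sets of each gene gave 0.22 with an exact permutation p of 0.1, and leaving out both arrays numbered 3 turned the value to -0.12.

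Dystroglycan is made from the single gene Dag1, at chr9:108204861-108263977 in GRCm38.p6, whose product is cut into an outer laminin-binding and a membrane-spanning subunit. The brightest Dag1 probe set, 1426778_at, read 11.37, 11.36 and 11.33 with placebo and 11.26, 11.23 and 11.26 with E2. The groups did not overlap and the arrays of each were within 0.05 of each other. The difference was -0.10 ± 0.036 (SE), a fold of 0.930, with an unadjusted p of 0.022 by limma, but it turned to 0.073 under quantile normalization and 0.038 under cyclic loess. The other 3 probe sets, 1426779_x_at, 1423872_a_at and 1456131_x_at, had differences of -0.092, -0.11 and -0.15 in which the groups overlapped. All 3 had their maximum on OVX replicate 3 and their minimum on OVX + E2 replicate 3, unlike 1426778_at. Under quantile normalization all 4 Dag1 values were above 0, and under cyclic loess 3 of 4 were.

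Sgca, Sgcb and Sgcd encode sarcoglycans of the tight subcomplex beside dystroglycan, and each is a limb-girdle muscular dystrophy gene. Sgca and Sgcb leaned lower and Sgcd did not. Sgca, α-sarcoglycan, lies at chr11:94962777-94976327 in GRCm38.p6. Its single probe set, 1422654_at, read 10.77, 10.78 and 11.01 in the placebo group and 10.71, 10.65 and 10.40 in the E2 group. Every OVX array was above every OVX + E2 array, and again replicate 3 was the highest of one group and the lowest of the other. The difference was -0.27 ± 0.098 (SE), a fold of 0.831, with an unadjusted p of 0.029 by limma, and it was -0.095 without both arrays numbered 3 and -0.12 under cyclic loess.

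Sgcb, β-sarcoglycan at chr5:73632749-73647737, was measured by 3 probe sets. The probe set 1436678_at read 8.73, 8.86 and 8.90 with placebo and 8.68, 8.56 and 8.71 with E2. The groups did not overlap, by the narrow margin between OVX replicate 1 and OVX + E2 replicate 3. Its difference was -0.18 ± 0.061 (SE) with an unadjusted p of 0.020 by limma, and -0.18 also without both arrays numbered 3. It was -0.037 under quantile normalization and -0.061 under cyclic loess, with unadjusted p-values by limma of 0.630 and 0.406. The brightest, 1419668_at, read 9.47, 9.33 and 9.51 for OVX against 9.27, 9.33 and 9.34 for OVX + E2. OVX replicate 2 lay within the OVX + E2 range, and the difference of -0.13 (unadjusted p of 0.055 by limma) turned to 0.033 under quantile normalization and 0.016 under cyclic loess. The third, 1419667_at, differed by -0.087, with values from 8.43 to 8.82 in OVX and 8.41 to 8.82 in OVX + E2.

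Sgcd, δ-sarcoglycan at chr11:46971077-47989451, had 1 dim probe set, 1450805_at. It read 6.96, 6.73 and 6.89 with placebo and 6.91, 6.97 and 6.88 with E2. The groups overlapped and the difference was 0.062 ± 0.064 (SE), with an unadjusted p of 0.366 by limma. This probe set was brighter than 48.6% of all probe sets, and whether it stood above background was not tested.

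On the inner face, Sntb1 showed little signal. β1-syntrophin, an adaptor that binds dystrophin and recruits channels and kinases, is encoded at chr15:55636388-55907302. Its 6 probe sets were brighter than 3.18% to 62.3% of all probe sets. Their differences ran from -0.070 to -0.0014, all with groups that overlapped except 1435987_x_at, which differed by -0.060. The brightest, 1436204_at, read 7.11, 7.32 and 7.28 in the placebo group and 7.19, 7.19 and 7.12 in the E2 group, with the lowest value in the OVX group. Leaving out both arrays numbered 3 put 1436203_a_at and 1451938_a_at above 0, at 0.021 and 0.018.

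Dtna encodes α-dystrobrevin, a dystrophin relative that carries syntrophins, and lies at chr18:23310006-23659719 in GRCm38.p6. Of its 7 probe sets 6 were below 0. The probe set with the lowest p, 1456069_at, read 7.88, 7.95 and 8.29 for OVX against 7.88, 7.68 and 7.62 for OVX + E2. The groups met at replicate 1, where the 2 arrays differed by less than the second decimal. The difference of -0.31 ± 0.12 (SE) had an unadjusted p of 0.030 by limma, and was -0.25 under cyclic loess and -0.14 without both arrays numbered 3.

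The brightest Dtna probe set, 1419223_a_at, read 9.26, 8.99 and 9.36 with placebo and 9.14, 9.26 and 8.83 with E2. Replicate 3 again gave the highest and the lowest value. The difference of -0.13 was 0.019 under quantile normalization, 0.0046 under cyclic loess and 0.069 without both arrays numbered 3. The same order was seen in 1425292_at, at 8.49, 8.58 and 9.07 in the placebo group and 8.56, 8.48 and 8.27 in the E2 group, whose difference of -0.27 was -0.012 without both arrays numbered 3. The remaining probe sets 1426066_a_at, 1427588_a_at, 1429768_at and 1453625_at differed by -0.17, -0.14, -0.11 and 0.0096, the last being -0.0070 after median centring.

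**Figure D2:**
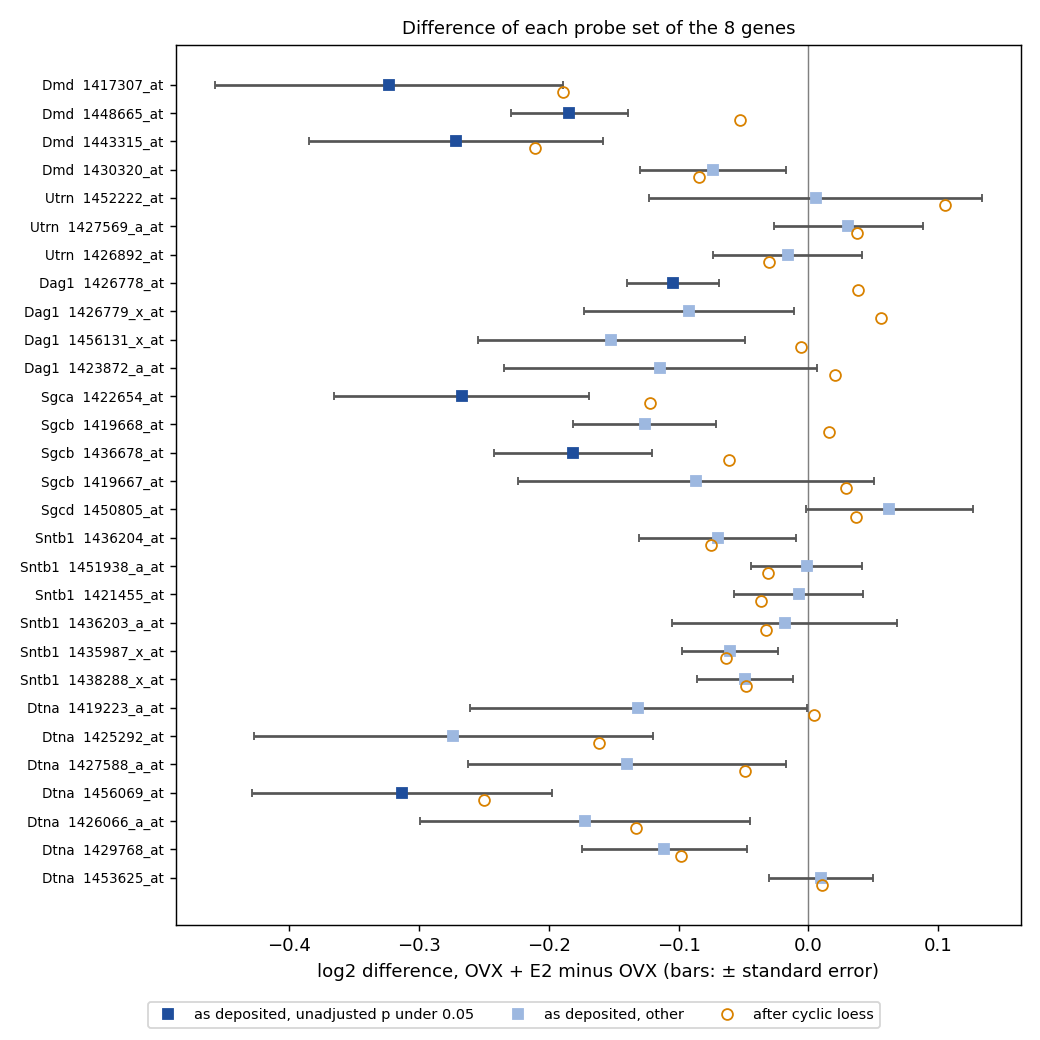
Log2 differences, OVX + E2 minus OVX, of the 29 probe sets of the 8 genes, with bars of ± 1 SE from limma, dark squares for an unadjusted p under 0.05 and open circles for the same difference after cyclic loess. The 7 dark squares lie to the left of 0, and the circles of the Dag1 probe sets and of the brightest Sgcb and Dtna probe sets lie at or to the right of it.

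Lower values went with brightness over all probe sets, and the bright members were close to that background. Among the dimmer members lower values were more frequent than among all dim probe sets. Over all probe sets the median difference was 0.024 for mean values of 6 to 7, -0.12 for 8 to 9, -0.15 for 9 to 10 and -0.16 for 10 to 11. Of the 14 member probe sets with a mean of 8 or more, 5 were lower at an unadjusted p under 0.05, or 35.7%, against 32.8% of all 8643 probe sets this bright. Their median difference was -0.14, and that of all bright probe sets was -0.13. The 15 dimmer member probe sets had 2 such values, or 13.3%, against 3.89% of all dim probe sets. These were Dmd 1443315_at and Dtna 1456069_at, with means of 7.86 and 7.89. Of all probe sets with a mean of 7 to 8, 8.05% were lower at that threshold. The difference was below 0 in 12 of the 15 dimmer members, or 80%, against 43.3% of all dim probe sets.

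**Figure D3:**
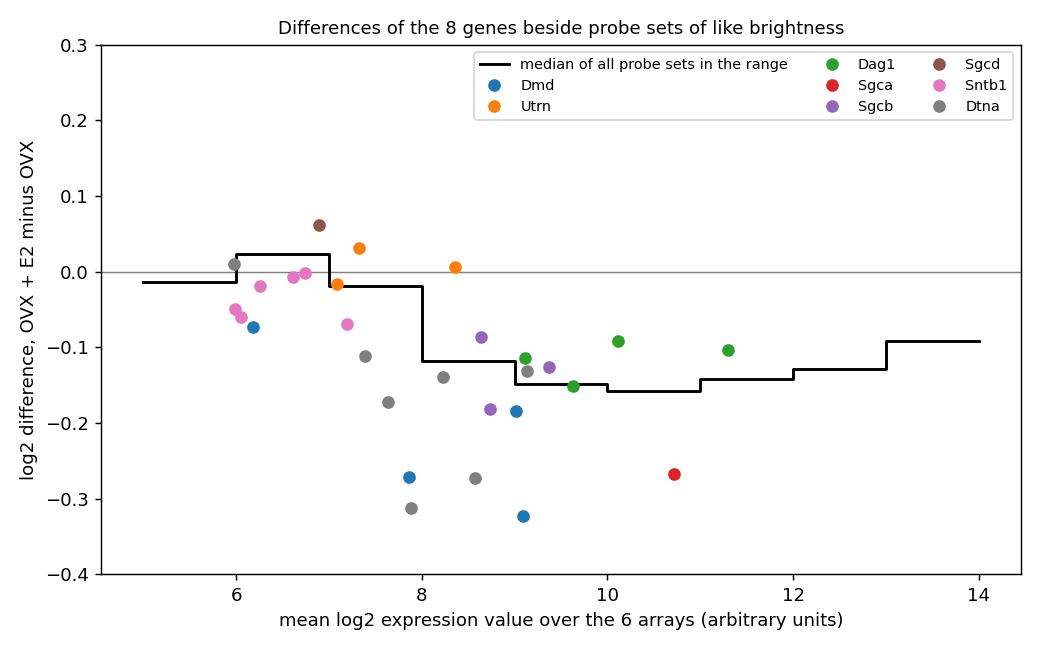
Log2 difference of each member probe set against its mean log2 expression value over the 6 arrays, coloured by gene, with the median of all probe sets in each range of 1 log2 unit as a step line. Dag1 lies on or above the line of probe sets of like brightness, whereas Sgca and the 3 brighter Dmd probe sets lie below it.

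Scaling that removes such a dependence lowered the counts. After quantile normalization 18 and after cyclic loess 19 of the 29 were below 0, with medians of -0.030 and -0.037, and 0 were lower at an unadjusted p under 0.05. At this threshold 3.33% and 4.02% of all probe sets were then lower. After centring each array on its median 27 were below 0 and 8 were lower at that threshold, where 12.4% of all probe sets were. These scalings moved the median of all probe sets by less than 0.03. What part of the brightness dependence belongs to the muscle and what part to the array processing was not tested.

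A second feature moved with the members, the order of the arrays. OVX replicate 3 held the maximum and OVX + E2 replicate 3 the minimum in 12 of the 29 probe sets, where 10.3% of all probe sets had this order. These were 3 of 4 for Dmd, 3 of 4 for Dag1, the 1 of Sgca and 5 of 7 for Dtna, and 0 for Utrn, Sgcb, Sgcd and Sntb1. Among probe sets with a mean of 8 or more the count was 9 of 14 in the members against 26.6% of all. The same arrays were the highest and lowest of the fast-fibre genes. In a fit that also held the fast-fibre score, 1 member probe set, Dmd 1448665_at, was lower at an unadjusted p under 0.05 by limma, at -0.13, and 4.07% of all probe sets were lower in that fit. Without both arrays numbered 3, 4 member probe sets passed that threshold: Dmd 1448665_at at -0.13, Dag1 1426778_at at -0.12, Sgcb 1436678_at at -0.18 and Utrn 1452222_at at -0.21. Of all probe sets 7.54% were then lower. The part of fibre type in these values was not tested.

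**Figure D4:**
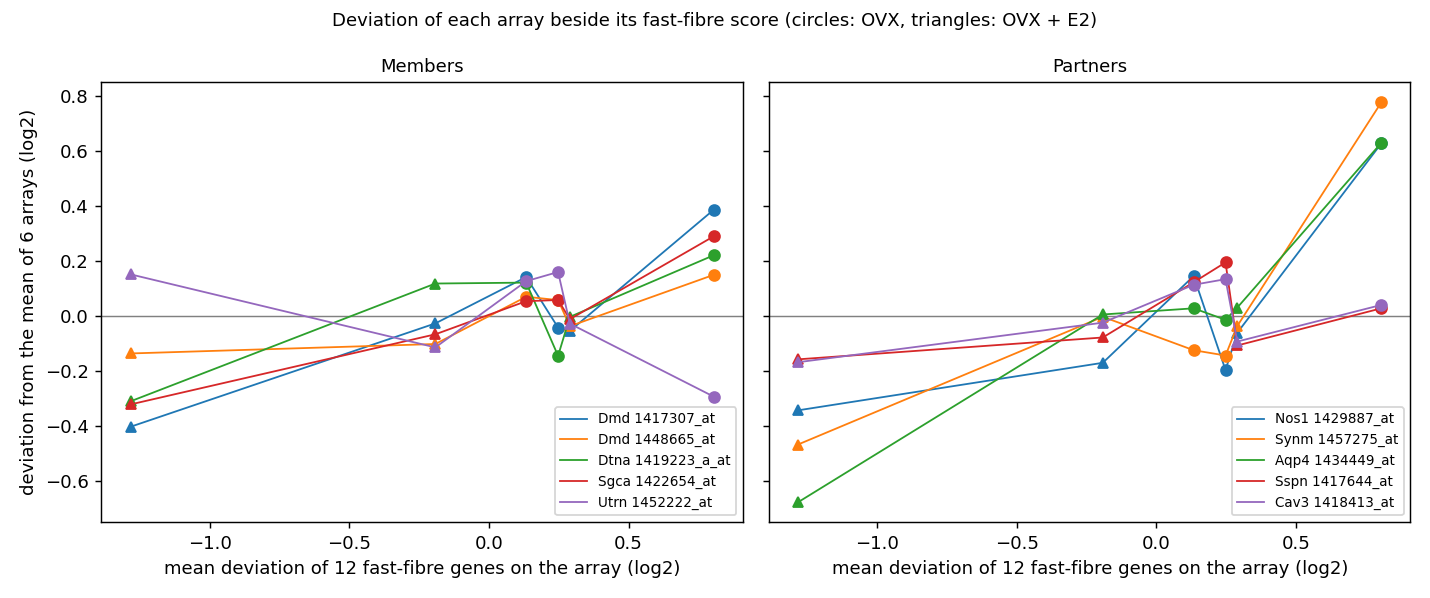
Deviation of each array from the mean of the 6 arrays, in log2 units, for 5 member probe sets (left) and 5 partner probe sets (right) against the mean deviation of 12 fast-fibre genes on the same array, with circles for OVX and triangles for OVX + E2. Dmd 1417307_at, the brightest Dtna probe set and Sgca are lowest at the far left, on OVX + E2 replicate 3, and highest at the far right, on OVX replicate 3, and Utrn is lowest at the far right.

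The other subunits of the complex were described with 1 probe set per gene, chosen as the most variable by interquartile range. Of 9 listed genes 6 were analysed here, and 3 of these had a difference below 0, with a median of 0.0056. Apart from Sspn, with a mean of 8.22, the chosen probe sets were dim, with means of 6.29 to 7.27. With dim probe sets left out, only Sspn and Dtnb (0.016) remained, and the median was -0.098, set mainly by Sspn. None passed an unadjusted p of 0.05 by limma in either direction, where 13.0% of all genes were lower and 6.01% higher. Sspn, sarcospan, a tetraspanin-like protein bound to the sarcoglycans, differed by -0.21 on that probe set, 1417645_at (unadjusted p of 0.082 by limma). Its brightest probe set, 1417644_at, read 10.50, 10.57 and 10.40 for OVX against 10.27, 10.30 and 10.22 for OVX + E2. The groups did not overlap, and the arrays numbered 3 were the lowest of each group, unlike most members. The difference was -0.23 ± 0.052 (SE) with an unadjusted p of 0.0030 by limma, and -0.25 without both arrays numbered 3. It was -0.082 under cyclic loess and -0.057 under quantile normalization, with unadjusted p-values by limma of 0.188 and 0.428.

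Binding partners of the complex covered signalling proteins, caveolin, laminin and cytoskeletal linkers. Of 18 listed genes 17 were analysed here, 13 were below 0, where 54.0% of all genes were, and at an unadjusted p under 0.05 by limma 5 were lower and 1 was higher, against the same shares of 13.0% and 6.01% of genes. Their median was -0.088, and -0.078 under cyclic loess. The chosen probe sets of the 5 lower genes were bright, with means of 8.48 to 10.4. Of all probe sets with a mean of 8 or more, 32.8% were lower at that threshold and 90.4% were below 0. Mapk12, a p38 kinase that binds a syntrophin, read 10.53, 10.57 and 10.62 with placebo and 10.38, 10.26 and 10.18 with E2 on probe set 1449283_a_at. The groups did not overlap, and the difference of -0.30 had an unadjusted p of 0.0013 by limma, just above the study's threshold. It was -0.16 under cyclic loess and -0.13 under quantile normalization, with unadjusted p-values by limma of 0.019 and 0.039. Another probe set of the gene, 1447823_x_at, differed by 0.00086, and by 0.058 under cyclic loess. Grb2, an adaptor that binds β-dystroglycan, differed by -0.23, Cav3, muscle caveolin, by -0.19 and Ank2, an ankyrin that places dystrophin at the membrane, by -0.21. Their unadjusted p-values by limma were 0.0031, 0.0064 and 0.028. Under cyclic loess these differences were -0.12, -0.084 and -0.10, with unadjusted p-values by limma of 0.069, 0.127 and 0.165. Other probe sets differed less: Grb2 1449111_a_at by -0.094, and Ank2 1434265_s_at, the brightest of 6 for that gene, by -0.048 (0.083 under cyclic loess), with 3 dimmer Ank2 probe sets above 0, at 0.013 to 0.095. The fifth, Synm, an intermediate filament protein that binds dystrophin, differed by -0.57 on 1455610_at (unadjusted p of 0.033 by limma). Without both arrays numbered 3 this difference was -0.21. The brighter Synm probe set, 1457275_at, differed by -0.34 (unadjusted p of 0.226 by limma), and by 0.11 without both arrays numbered 3.

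Krt8, a keratin of costameres, was the 1 gene higher in this list. Its probe set 1423691_x_at read 6.64, 6.65 and 6.67 in the placebo group and 6.81, 6.79 and 6.79 in the E2 group, without overlap. The difference was 0.14 (unadjusted p of 0.0038 by limma), and the other probe sets 1420647_a_at and 1435989_x_at differed by 0.049 and 0.041. Nos1, neuronal nitric oxide synthase, which is anchored to the complex by a syntrophin, differed by -0.32 on 1438483_at (unadjusted p of 0.169 by limma). Without both arrays numbered 3 this difference was -0.0069. The brightest Nos1 probe set, 1429887_at, differed by -0.38 (unadjusted p of 0.085 by limma), and by -0.090 without those arrays. The dimmer 1422949_at and 1458626_at differed by -0.025 and 0.022. Lama2, the laminin chain that α-dystroglycan binds, differed by -0.039, within its spread, and by 0.098 under cyclic loess. Without both arrays numbered 3 it differed by -0.20, with an unadjusted p of 0.036 by limma.

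Plec, plectin, which links dystrophin and dystroglycan to desmin, gave probe sets that disagreed, and is named after its values were seen. The probe set 1437554_at differed by 0.39, 1419835_s_at by -0.24 and 1434610_at by -0.34, with unadjusted p-values by limma of 0.111, 0.0035 and 0.0026. Both lower ones were brighter on average, and in neither did the groups overlap.

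Enzymes that build the laminin-binding glycan of α-dystroglycan were described in the same way. Of 17 listed genes 13 were analysed here, 11 were below 0, where 54.0% of all genes were, and 3 were lower and 0 higher at an unadjusted p under 0.05 by limma, again against 13.0% and 6.01% of all genes. The median was -0.10, and -0.033 under cyclic loess. Of the 3 lower genes, Pomgnt1 and Dolk had probe sets with means of 9.33 and 8.89, and Dpm2 one of 7.73. At that threshold 32.8% of all probe sets with a mean of 8 or more were lower, and 8.05% of those from 7 to 8. Pomgnt1, which adds N-acetylglucosamine to the first mannose, read 9.43, 9.41 and 9.38 for OVX against 9.30, 9.28 and 9.19 for OVX + E2. The groups did not overlap, and the difference was -0.15 ± 0.044 (SE) with an unadjusted p of 0.011 by limma, but -0.010 under cyclic loess. Dolk, dolichol kinase, and Dpm2, a subunit of the enzyme that makes the mannose donor, differed by -0.23 and -0.15, also without overlap. Their unadjusted p-values by limma were 0.014 and 0.019. Both differed by -0.10 under cyclic loess, with unadjusted p-values by limma of 0.108 and 0.056.

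**Figure D5:**
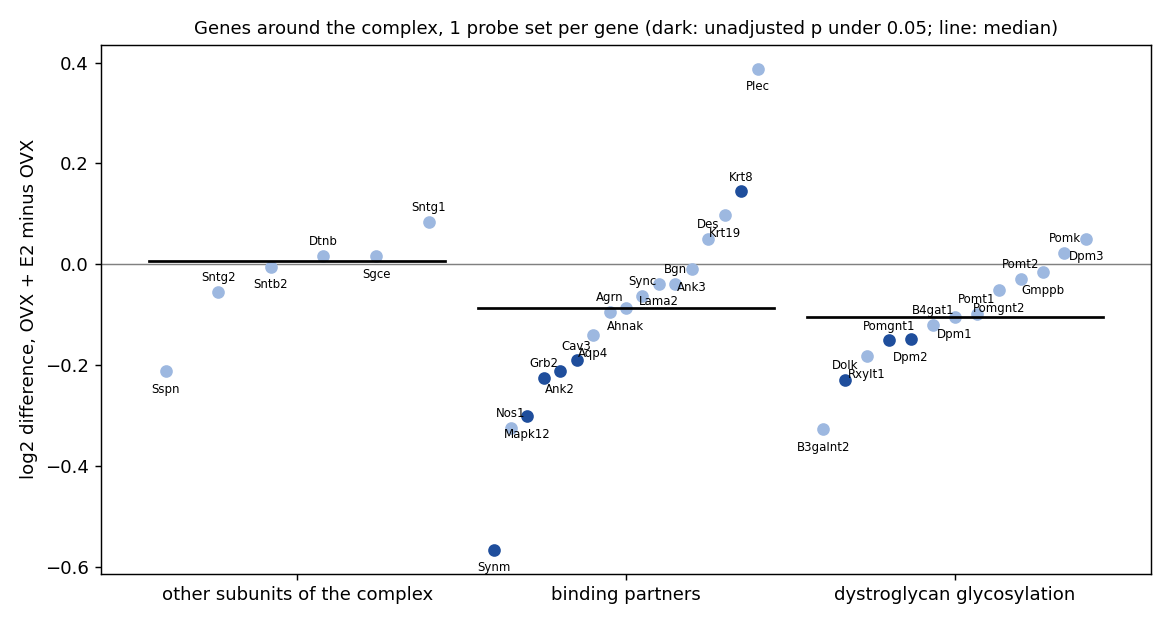
Log2 difference, OVX + E2 minus OVX, of the genes in 3 lists around the complex, 1 probe set per gene, with dark points for an unadjusted p under 0.05 by limma and a line at the median of each list. Of the 6 other subunits Sspn lies at -0.21 and the rest, on dimmer probe sets, at -0.055 to 0.085. Below 0 lie 13 of 17 binding partners and 11 of 13 glycosylation genes. Of all genes 54.0% were below 0, and of all probe sets with a mean of 8 or more 90.4%.

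The genes whose pattern over the 6 arrays was most like that of a member were sought among 19426 probe sets, by Pearson r, as a description. For Dmd 1417307_at they were Trap1 (r = 0.997), Ube2d3 (0.997) and Smyd1 (0.996). Smyd1, a muscle methyltransferase of myosin assembly, had its highest value, 10.41, on OVX replicate 3 and its lowest, 8.27, on OVX + E2 replicate 3. For Utrn 1452222_at they were Fbxo33 (0.995), Galns (0.994) and Tmem204 (0.992), whose differences were 0.0042, -0.0031 and -0.018. For Dag1 1426778_at they were Naxd (0.998), Zfp771 (0.993) and Polg (0.989). Zfp771 1440817_x_at differed by -0.24 with an unadjusted p of 0.00091 by limma, within the study's threshold. It was chosen for its likeness to a Dag1 probe set whose groups do not overlap, so the choice itself favoured a low p. All points of such an r are the same 6 arrays.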

How the data were processed

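RNA of 6 samples, 3 OVX and 3 OVX + E2, was hybridized to Affymetrix mouse genome arrays. The authors corrected the background, normalized by variance stabilization, and combined the probes of a set by median polish (R 2.14.2). The deposited values are log2 in arbitrary units, a scale that compresses differences of dim probe sets. Probe-level files and detection calls were not used here. Precision is limited by the number of arrays.

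Groups came from the treatment labels. The platform annotation gave 1 gene symbol for 34958 probe sets, more than 1 for 932 and none for 9211, and 0 member probe sets had several. Positions and promoters came from RefSeq tables of GRCm38.p6. Each of the 45101 probe sets was tested with the moderated linear model of limma 3.58.1 (lmFit, eBayes; R 4.3.3), two-sided and without covariates, on the deposited log2 values. The threshold was the study's unadjusted p of 0.001, with a wider one of 0.05, and Benjamini-Hochberg adjustment covered all probe sets. The fit was tested on simulated data. Alternatives were quantile normalization, cyclic loess (3 iterations), median centring, a brightness filter, the replicate number as a block, the fast-fibre score as a covariate, an intensity trend, array weights, a plain unpaired test with equal variances, and leaving out arrays.

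All probe sets of the 8 genes were named. In the lists of other subunits, binding partners and glycosylation enzymes, up to 4 genes per list and direction were named by smallest p under 0.05, plus Sspn, Nos1, Cav3 and Lama2 whatever their values. For likeness, the 3 genes with the highest r among probe sets brighter than the median were named. Synm and Plec fall outside this rule. The members and lists were chosen with earlier results of these data known.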

Additional observations from a re-analysis of the deposited data

How the results depend on the processing

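No member probe set reached an unadjusted p of 0.001, and none was higher at 0.05, under any alternative tried. The count of member probe sets lower at 0.05, 7 as reported, was 0 under quantile normalization and under cyclic loess, 1 with the fast-fibre covariate, 2 in the plain unpaired test, 4 with array weights, 4 without both arrays numbered 3, and 2 to 7 when 1 array was left out, being 2 without OVX replicate 3, and 4 and 3 when OVX + E2 replicates 2 and 3 were omitted in turn. Their median was -0.030 and -0.037 under quantile normalization and cyclic loess, and -0.055 (without OVX replicate 3) to -0.13 when 1 array was left out, with -0.067 without OVX + E2 replicate 3. Utrn minus Dmd was -0.12 without both arrays numbered 3, and 0.071 to 0.51 when 1 array was left out. For the other subunits the median was -0.098 when dim probe sets were left out, which kept only Sspn and Dtnb. When 1 array was left out the other subunits had medians of -0.027 to 0.025. Of them 1 gene was lower in the plain unpaired test and with the brightest probe set, and 0 to 1 when 1 array was left out (1 without replicate 2 of either group). The median of the binding partners was -0.051 with the fast-fibre covariate, -0.017 without both arrays numbered 3 and -0.080 to -0.13 when 1 array was left out. Of them 1 gene, Mapk12, was lower under quantile normalization and cyclic loess. With the fast-fibre covariate 3 were lower, in the plain unpaired test 3, and 3 (without OVX + E2 replicate 3) to 6 when 1 array was left out. The median of the glycosylation genes was -0.019 and -0.033 under quantile normalization and cyclic loess and -0.067 (without OVX replicate 1) to -0.15 when 1 array was left out. Of them 0 genes were lower under quantile normalization, cyclic loess and the fast-fibre covariate, 1 without both arrays numbered 3, and 2 to 6 (without OVX replicate 2) when 1 array was left out.

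Same-numbered arrays deviated from their group means with r of -0.13, -0.20 and -0.34, so no likeness by replicate number was seen. Deviations from a mean of 3 arrays are tied to each other, so these r cannot settle whether the replicate numbers pair the samples. With the replicate number as a block, 2 member probe sets and 3 binding partners were lower at 0.05, and Utrn minus Dmd kept 0.33 with an exact permutation p of 0.75.

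Of 456 values of single member probe sets under 16 settings, 401 kept their direction, and 55 in 17 probe sets turned. Under quantile normalization the turned values were 0.040, 0.073, 0.087 and 0.023 for Dag1 1423872_a_at, 1426778_at, 1426779_x_at and 1456131_x_at, 0.053 and 0.033 for Sgcb 1419667_at and 1419668_at, and 0.019 for Dtna 1419223_a_at. Under cyclic loess they were 0.021, 0.038 and 0.056 for the first 3 of these Dag1 probe sets, 0.029 and 0.016 for Sgcb, and 0.0046 for Dtna. With the fast-fibre covariate they were -0.17 for Utrn 1452222_at, 0.012 for Dag1 1423872_a_at, 0.041 for Sgcb 1419667_at, 0.080 and 0.031 for Sntb1 1436203_a_at and 1451938_a_at, and 0.061, 0.043 and 0.026 for Dtna 1419223_a_at, 1426066_a_at and 1427588_a_at. Median centring gave -0.011 for Utrn 1452222_at and -0.0070 for Dtna 1453625_at, and array weights gave -0.059 for Utrn 1452222_at and 0.043 and 0.026 for the same Sntb1 probe sets. Without both arrays numbered 3 they were -0.21 for Utrn 1452222_at, 0.069, 0.021 and 0.0016 for Dag1 1423872_a_at, 1426779_x_at and 1456131_x_at, 0.074 for Sgcb 1419667_at, 0.021 and 0.018 for the same Sntb1 probe sets, and 0.069, 0.050 and 0.049 for the same Dtna probe sets.

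When 1 array was left out, values crossed 0 in Utrn 1426892_at (-0.058 to 0.022), 1427569_a_at (-0.018 to 0.083) and 1452222_at (-0.14 to 0.087), Dag1 1423872_a_at (-0.19 to 0.022), Sgcb 1419667_at (-0.22 to 0.0090), Sgcd (-0.0038 to 0.11), Sntb1 1421455_at (-0.052 to 0.022), 1436203_a_at (-0.12 to 0.043) and 1451938_a_at (-0.031 to 0.019), and Dtna 1427588_a_at (-0.23 to 0.0054) and 1453625_at (-0.014 to 0.037). The cause of these turns was not tested.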
